A study of Mus musculus with 38 samples.

Results

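The thymus of mouse embryos that carry hypomorphic alleles of Dnmt3b was compared with wild-type thymus on 2-colour oligonucleotide arrays. The comparison was defined by the source labels ICF1 to ICF5 and holds 18 of the 38 arrays of the study. It covers 5 hypomorphic embryos at 18.5 dpc (days post coitum), whose labels give the genotype m3/m24 except on 3 arrays, 1 of embryo 1 and 2 of embryo 3, that name the embryo alone. The reference on every array was a pool of 5 wild-type thymus samples. The other 20 arrays hold fibroblasts of 5 hypomorphic embryos at 12.5 dpc against a pool of 5 wild-type fibroblast samples. Their source labels, MEF1 to MEF5, give no genotype. The hybrid 129SvJae x C57BL/6 background was common to all embryos, wild type included, and no other treatment or allele is given in the labels. A hypomorphic allele keeps part of the activity of the gene, and both alleles are present in every cell of the embryo, so the thymus holds mutant thymocytes in a mutant stroma. The pool counts as 1 control sample, and the spread between wild-type embryos is not part of any test below.

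Dnmt3b is a DNA methyltransferase that places methyl groups on cytosines of CpG dinucleotides that did not carry them before. Mutations of its human counterpart cause ICF syndrome, in which immunodeficiency is joined by unstable centromeres. In cells of the body, methylated CpG-rich promoters are one of the means by which genes of germ cells are kept silent, and the repressor E2F6 and partners of the protein MAX act at many of the same promoters. The fetal thymus consists mainly of thymocytes that rearrange their T cell receptor genes, in a network of epithelium that also makes products of other tissues, with blood cells, vessels, mesenchyme and, at dissection, traces of neighbouring organs.

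Each array gave 1 log2 ratio per spot for 25344 spots, and 213 to 423 of these had no value. Every ratio below is read as hypomorph over pool on the log2 scale, so that positive values are higher in the hypomorph. The orientation of the ratios was read from the values. Values at the upper bound of the scale occurred 208 times, only where Cy5 labelled the hypomorph (9 arrays), and values at the lower bound 167 times, only where Cy3 did (9 arrays). Eif2s3y also had 1 sign in both orientations in embryos 1 and 2, and Rpl39l on all 18 arrays. These patterns show ratios taken the same way round in both dye orientations. They do not show which sample was the numerator, and hypomorph over pool was assumed. Arrays were centred on their median, averaged within each dye orientation of an embryo and then over both orientations, and the embryo was the replicate. The 257 spots of Actb had an SD of 0.22 to 0.71 on single arrays, and the 257 of Gapdh of 0.16 to 0.35. Arrays of 1 orientation correlated at 0.23 to 0.79 across spots, but arrays of 1 embryo in opposite orientations at -0.54 to -0.26. After the mean of each orientation was removed, 8 of the 18 arrays correlated better with the arrays of another embryo than with those of their own (own embryo -0.05 to 0.30). For 4 of the 18, both arrays of embryo 5 among them, the correlation with their own embryo was below 0. Ratios against a pool of the same tissue carry no level, so the label thymus could not be checked from the levels of its markers. A lower ratio can come from fewer cells of a type or from less RNA per cell, and these cannot be told apart.

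The promoters of some of the genes named below are shown first, because CpG dinucleotides are the substrate of Dnmt3b. They are RefSeq sequences of build GRCm38.p6, from 250 bases before to 50 bases after a transcription start, written 5′ to 3′ on the strand of the gene, with every CpG in capitals. They were searched on both strands for TCCCGC, the letters known for E2F6. The second search, also on both strands, was for the E-box CACGTG of MAX and its partners. The windows lie at chr3:40708621-40708920 on the plus strand for Slc25a31, chr13:112652261-112652560 on the minus strand for Ddx4, chr2:127424949-127425248 on the plus strand for Gpat2, chrX:134476441-134476740 on the minus strand for Taf7l, chr16:10169978-10170277 on the plus strand for Rpl39l, chr19:38043528-38043827 on the minus strand for Myof and chr11:99389315-99389614 on the minus strand for Krt10.
Slc25a31: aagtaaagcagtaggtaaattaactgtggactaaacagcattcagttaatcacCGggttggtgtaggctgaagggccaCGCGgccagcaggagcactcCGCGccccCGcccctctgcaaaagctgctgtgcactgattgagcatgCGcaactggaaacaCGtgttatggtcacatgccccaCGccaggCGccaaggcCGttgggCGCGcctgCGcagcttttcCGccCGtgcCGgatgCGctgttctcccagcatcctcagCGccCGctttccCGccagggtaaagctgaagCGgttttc
Ddx4: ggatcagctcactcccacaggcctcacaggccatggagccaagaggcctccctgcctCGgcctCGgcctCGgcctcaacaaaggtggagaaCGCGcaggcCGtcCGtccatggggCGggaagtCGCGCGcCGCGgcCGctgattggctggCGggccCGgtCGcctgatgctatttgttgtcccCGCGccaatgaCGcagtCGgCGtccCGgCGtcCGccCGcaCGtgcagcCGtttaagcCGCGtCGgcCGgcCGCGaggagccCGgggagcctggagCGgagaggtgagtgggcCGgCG
Gpat2: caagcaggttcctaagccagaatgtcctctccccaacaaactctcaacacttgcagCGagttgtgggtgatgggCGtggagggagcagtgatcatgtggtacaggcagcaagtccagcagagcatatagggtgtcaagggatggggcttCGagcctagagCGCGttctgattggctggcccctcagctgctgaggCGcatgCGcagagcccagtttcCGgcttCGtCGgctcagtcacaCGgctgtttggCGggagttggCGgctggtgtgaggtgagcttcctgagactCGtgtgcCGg
Taf7l: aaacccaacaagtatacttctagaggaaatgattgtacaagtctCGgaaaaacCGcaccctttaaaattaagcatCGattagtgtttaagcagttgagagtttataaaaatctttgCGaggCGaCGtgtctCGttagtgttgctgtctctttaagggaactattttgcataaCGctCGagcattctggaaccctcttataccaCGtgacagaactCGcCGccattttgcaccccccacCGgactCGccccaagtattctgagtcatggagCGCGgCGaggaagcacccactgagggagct
Rpl39l: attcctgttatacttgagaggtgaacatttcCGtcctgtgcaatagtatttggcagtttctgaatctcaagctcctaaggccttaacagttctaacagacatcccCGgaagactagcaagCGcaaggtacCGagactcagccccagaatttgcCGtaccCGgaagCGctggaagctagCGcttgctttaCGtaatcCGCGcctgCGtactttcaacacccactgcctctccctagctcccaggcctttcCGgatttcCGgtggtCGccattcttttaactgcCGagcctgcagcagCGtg
Myof: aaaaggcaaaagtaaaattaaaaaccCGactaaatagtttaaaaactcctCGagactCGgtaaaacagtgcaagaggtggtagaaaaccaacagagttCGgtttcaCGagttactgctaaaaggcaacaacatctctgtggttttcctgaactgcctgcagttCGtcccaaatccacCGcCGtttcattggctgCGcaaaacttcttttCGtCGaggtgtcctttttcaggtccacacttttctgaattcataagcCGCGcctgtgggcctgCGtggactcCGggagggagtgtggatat
Krt10: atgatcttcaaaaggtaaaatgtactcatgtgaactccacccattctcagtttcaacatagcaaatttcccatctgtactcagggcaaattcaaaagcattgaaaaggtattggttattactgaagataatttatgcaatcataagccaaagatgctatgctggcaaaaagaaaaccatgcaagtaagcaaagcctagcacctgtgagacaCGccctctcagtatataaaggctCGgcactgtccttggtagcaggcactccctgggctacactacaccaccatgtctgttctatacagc
The window of Slc25a31 holds 22 CpG, with TCCCGC starting at position 21 after the start and CACGTG at position -93. That of Ddx4 holds 38 CpG, with the reverse complement of TCCCGC at -136 and CACGTG at -29. Gpat2 has 15 CpG and the reverse complement of TCCCGC at -1, and Taf7l has 17 CpG and CACGTG at -49. Rpl39l with 17 CpG and Myof with 15 have neither of these letters. Krt10 has 2 CpG and neither. The starts used for Ddx4, Gpat2, Taf7l, Rpl39l and Krt10 lie inside the annotated gene. Over all 27025 genes in the promoter table the median is 8 CpG, 22.1% of genes hold TCCCGC on either strand and 8.09% hold CACGTG. Among the 14576 measured genes with a promoter these figures are 17 CpG, 31.3% and 9.93%. Of the 12 genes with the largest higher ratios 10 had an entry, with a median of 16 CpG, and 3 held TCCCGC and 3 CACGTG. Of the 12 lower genes, Krt10 and the largest others, 8 had one, with a median of 2.5 CpG, and 2 held TCCCGC and 0 CACGTG. All genes of the higher group with a match are shown above, of which Ddx4, Gpat2 and Taf7l did not pass the test against the pool. Its members Syce1, 8030474K03Rik, 3830403N18Rik and Pgam2, with no match, are not shown. A match says only that the letters stand there, and no methylation was measured.

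Dnmt3b transcript stood at -0.08 ± 0.15 (SD, n = 5; limma adjusted p = 0.917). The arrays do not say whether its single probe lies in the altered part of the gene, so this value checks no label. The other methyltransferases were near the pool as well: Dnmt3a was at 0.02 ± 0.06, Dnmt3l, a partner without catalytic activity, at 0.09 ± 0.49, and Dnmt1, which copies methylation after replication, at 0.09 ± 0.14 (SD, n = 5 each). For Dnmt1 the 2 probes disagreed, with -0.11 and 0.28. The signs of Dnmt1, Dnmt3a and Dnmt3l turned in 1 dye orientation alone. Of 19 measured genes of DNA methylation and of ICF syndrome, 3 had an unadjusted p under 0.05, against 7.48% of all features, and 0 passed after adjustment (limma, Benjamini-Hochberg over all features). These were Uhrf1, which brings Dnmt1 to newly copied DNA, at 0.26 ± 0.11, Cdca7 at 0.17 ± 0.14 and its partner, the chromatin remodeller Hells, at 0.16 ± 0.07 (SD, n = 5 each). Cdca7 turned to -0.16 in the Cy3 arrays alone, and the 3 probes of Hells disagreed, with 0.02, 0.08 and 0.36. CDCA7 and HELLS are themselves mutated in human ICF syndrome.

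Few features of the hypomorphic thymi passed the test against the pool. Of 21947 features, 4 rose and 1 fell at an adjusted p under 0.05, which is 0.0182% higher and 0.00456% lower (0.0228% in all). The genes that rose were Rpl39l, a copy of a ribosomal protein gene used in testis, Slc25a31, the ADP/ATP carrier of germ cell mitochondria, and Myof, a membrane repair protein of the ferlin family. The fourth was a probe with no gene name, at 0.55 ± 0.06 (SD, n = 5; limma adjusted p = 0.0280). Krt10, a keratin that marks differentiating layers of epithelium, was the gene that fell. At an unadjusted p under 0.05 there were 1642 features (7.48%), 591 higher (2.69%) and 1051 lower (4.79%), where chance gives 1097. All 5 embryos lay above the pool for 773 features (3.52%) and below it for 1062 (4.84%).

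Rpl39l was 2.17, 1.70, 2.45, 2.71 and 2.76 in embryos 1 to 5, and its mean of 2.36 ± 0.44 is a 5.13-fold higher level in the hypomorphs (SD, n = 5; limma adjusted p = 0.0125). It lay above the pool on all 18 arrays, from 1.59 to 2.84, and arrays of 1 embryo stayed closer together than the embryos did. Embryo 2 was the lowest and embryos 4 and 5 the highest, and the 5 embryos differed beyond the spread of their arrays (limma F test over single arrays, adjusted p = 1.2e-05). Slc25a31 was 2.41, 2.04, 1.75, 1.78 and 3.17, a mean of 2.23 ± 0.59 or 4.69-fold (SD, n = 5; limma adjusted p = 0.0499). It too was above the pool on all 18 arrays. The high value of embryo 5 rests on 1 array per orientation, which read 2.45 with the hypomorph in Cy5 and 3.88 with it in Cy3.

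Myof rose less but more evenly, with 0.70, 0.72, 0.69, 0.59 and 0.71 in embryos 1 to 5 and a mean of 0.68 ± 0.05, or 1.60-fold (SD, n = 5; limma adjusted p = 0.0125). Its 18 arrays read 0.39 to 1.02. The 2 probes of Myof did not behave alike: one stood at 1.25 (limma adjusted p = 0.00748 when each probe was tested on its own) and the other at 0.12 (adjusted p = 0.851). Krt10 fell by 0.49 ± 0.04, with -0.49, -0.44, -0.51, -0.49 and -0.54 in the 5 embryos, a 1.41-fold lower level (SD, n = 5; limma adjusted p = 0.0280). All 18 arrays read Krt10 below the pool, from -0.81 to -0.23. Arrays within an embryo had an SD of 0.20 for Myof and 0.21 for Krt10, wider than the spread of the embryo values. The embryos did not differ for either gene (limma F test, adjusted p = 0.947 and 0.993). Both calls rest in part on that narrow spread, and whether it arose by chance was not tested. In embryos 1 and 5 the Cy3 arrays of Myof and Krt10 were further from 0 than the Cy5 arrays, while in embryos 2 and 4 the Cy5 arrays of both genes were on average.

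These calls rest on all 5 embryos. Without embryo 1, 3 or 5, 0 features passed in limma, with 1102, 1629 and 1135 at an unadjusted p under 0.05. Without embryo 2, 1 passed, Rpl39l (adjusted p = 0.00754), and without embryo 4, 4 passed, Rpl39l and Myof among them (0.0443 for both). Slc25a31 passed in none of the 5 (adjusted p = 0.0830 to 0.220), nor did Krt10 (0.0833 to 0.220). The means moved less, with Rpl39l between 2.26 and 2.52 and Slc25a31 between 2.00 and 2.35. Values as deposited, without centring, gave 1 higher and 0 lower, and arrays scaled to equal spread gave 9 higher and 4 lower.

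**Figure D1:**
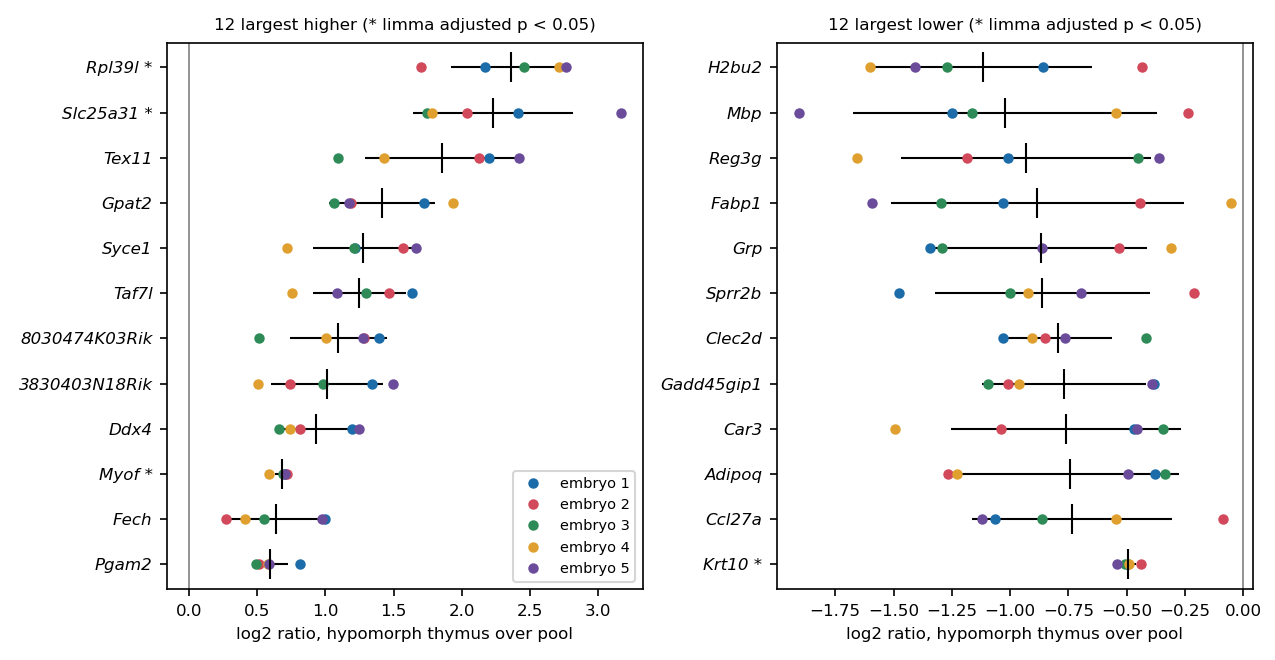
Log2 ratios of hypomorph thymus over the wild-type pool for the 12 genes with the largest higher ratios (left) and 12 lower genes (right). The lower genes are Krt10, which passed, and the largest others. Points are the 5 embryos, the tick is their mean and the bar 1 SD. Rpl39l lies between 1.70 and 2.76 and Slc25a31 between 1.75 and 3.17, while the points of Myof and Krt10 lie almost on each other.

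None of the other 9 genes among the 12 largest passed. Tex11, an X-linked gene of meiotic recombination, was 2.20, 2.12, 1.09, 1.43 and 2.42, a mean of 1.85 ± 0.56 (SD, n = 5; limma adjusted p = 0.0531). Every array lay above the pool, and embryos 3 and 4 were lower than the other 3 embryos in both dye orientations. Syce1, of the central element of the synaptonemal complex, was 1.28 ± 0.37 with all 18 arrays above the pool (adjusted p = 0.0531). Gpat2, an acyltransferase needed for piRNAs in mice, was 1.42 ± 0.39, and Taf7l, the germ cell version of a TFIID subunit, 1.25 ± 0.34 (adjusted p = 0.0501 for both, SD, n = 5 each). Gpat2 was above the pool on all 18 arrays and Taf7l on all 17 with a value. Pgam2, the phosphoglycerate mutase of muscle and testis, was above it on all 18, at 0.60 ± 0.13 (SD, n = 5; adjusted p = 0.0501).

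Ddx4, the Vasa helicase of germ cells, averaged 0.93 ± 0.27 (SD, n = 5; limma adjusted p = 0.0531) with embryo values of 0.66 to 1.25, highest in embryos 1 and 5. Its arrays separated by dye. With the hypomorph in Cy3 they read 0.96 to 1.86, and with it in Cy5 -0.27 to 0.93, so that the orientations do not overlap. The X-linked gene 3830403N18Rik also differed by dye (mean 1.62 in Cy3 and 0.41 in Cy5) around a mean of 1.01 ± 0.41. The X-linked gene 8030474K03Rik was 1.09 ± 0.36 and above the pool on all 18 arrays (SD, n = 5 each; adjusted p = 0.107 and 0.0605). Fech, the last enzyme of heme synthesis, completed the 12 genes at 0.64 ± 0.33 (adjusted p = 0.220), highest in embryos 1 and 5.

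**Figure D2:**
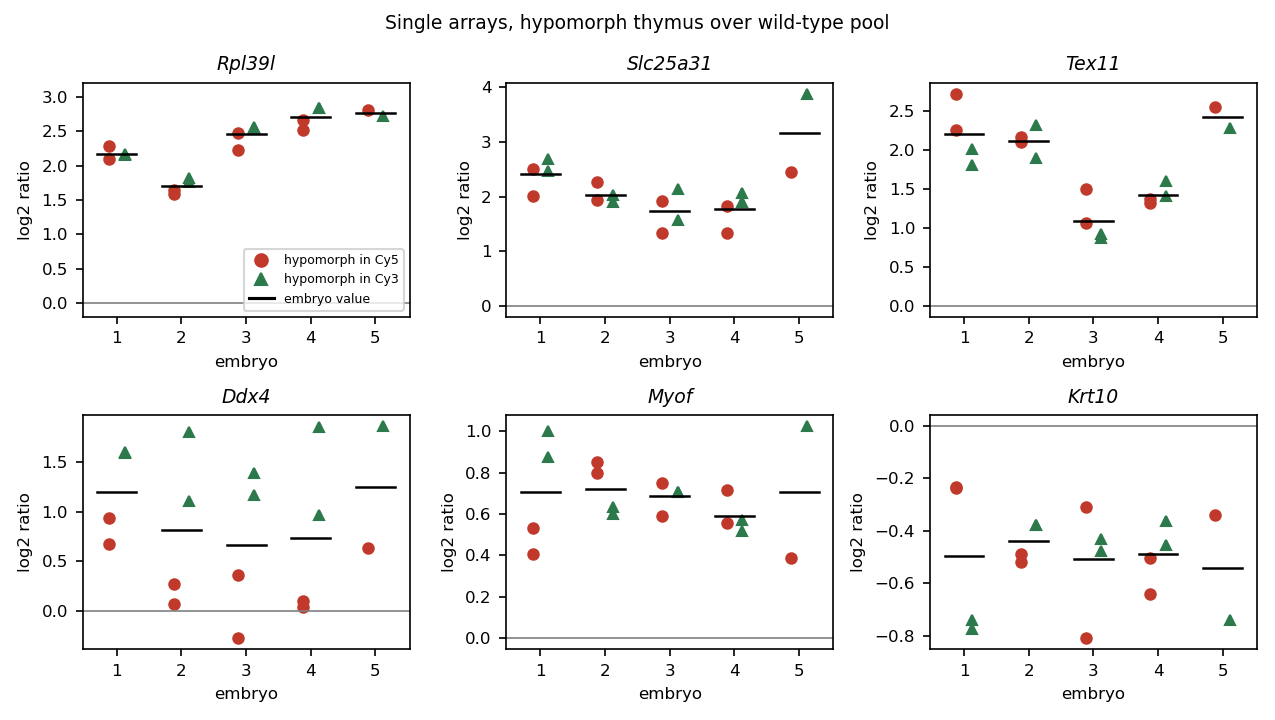
Log2 ratio of hypomorph thymus over the pool on single arrays, by embryo, for 6 genes; circles have the hypomorph in Cy5, triangles in Cy3, and bars are the embryo values. For Rpl39l the arrays of each embryo lie close together at 1.59 to 2.84, whereas every Cy3 array of Ddx4 (0.96 to 1.86) lies above every Cy5 array (-0.27 to 0.93).

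The lists of germ cell genes are read against the 2.69% of all features that were higher and the 4.79% that were lower at an unadjusted p under 0.05. Over all features 54.9% lay above the pool. These lists and those below were chosen with earlier results of these data known. Several hold genes named above for their size, such as Rpl39l, Slc25a31, Taf7l and Pgam2, so their counts are not independent evidence. The 11 germ cell genes known from the publication on these mice all lay above the pool (median 0.33, against 0.01 over all features), with 7 higher at an unadjusted p under 0.05, 0 lower and 1, Slc25a31, passing. Among these 7 were Stag3, a meiotic cohesin, at 0.33 ± 0.13, its partner Smc1b at 0.25 ± 0.14 and Mael, a piRNA factor, at 0.58 ± 0.19. The remaining 4 were Sycp3 of the synaptonemal complex at 0.13 ± 0.23, the testis tubulins Tuba3a and Tuba3b at 0.07 ± 0.06 and 0.09 ± 0.04, and Tex101 at 0.02 ± 0.09 (SD, n = 5 each). Only 9 of the 11 lay above the pool in the Cy5 arrays alone, where Sycp3 and Tex101 turned, and 9 in the Cy3 arrays alone, where Tuba3a and Tuba3b turned. Without embryo 1, 10 of the 11 lay above it, since Tex101 turned. The study chose these genes on these samples, so their direction is not independent evidence. Of them 10 had a promoter entry, and 8 held TCCCGC and 5 CACGTG, with a median of 20.5 CpG. Among measured genes with a promoter 31.3% held TCCCGC and 9.93% CACGTG, with a median of 17 CpG. The study chose the list, so these counts are not independent evidence either. Of 25 meiosis genes 4 were higher and 1 lower at an unadjusted p under 0.05 (median 0.02). In the Cy5 arrays alone 5 were higher and 9 lower (median -0.14), and in the Cy3 arrays alone 15 higher and 3 lower (0.25). Tex12 and Sycp1, both of the synaptonemal complex, were at 0.51 ± 0.16 and 0.53 ± 0.29, while Syce2 of its central element was lower at -0.31 ± 0.17 and below the pool on all 18 arrays (SD, n = 5 each). Of 22 genes of piRNAs and germline defence 3 were higher and 1 lower (median 0.03), the higher ones being Gpat2, Ddx4 and Mael. Mael is also among the 25 meiosis genes and the 11 of the study. Of 25 testis copies of housekeeping genes 6 were higher and 0 lower (median 0.09), and 2 passed, Rpl39l and Slc25a31. Regulators of primordial germ cells and testis had 2 of 29 higher and 0 lower (0.02; -0.09 in Cy5 and 0.15 in Cy3). E2F6 and the variant Polycomb genes, which repress germline genes, had 1 of 25 higher, Tfdp2 at 0.20 ± 0.14 (SD, n = 5), and 0 lower (0.04; 0.15 in Cy5 and -0.12 in Cy3), which is near the share of all features. The sign of Tfdp2 turned in the Cy5 arrays alone.

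The 12 lower genes are Krt10, which passed, and the largest others with 1 sign in all 5 embryos and an unadjusted p under 0.01. None of those others passed. By size alone Krt10 would not be among the 12, since Ly6d at -0.72 was further from the pool. H2bu2, a histone H2B gene, was -0.86, -0.44, -1.27, -1.60 and -1.41, a mean of -1.11 ± 0.47 (SD, n = 5; limma adjusted p = 0.113), and all 18 arrays were below the pool. Clec2d, the ligand of an inhibitory receptor of natural killer cells, was -1.03, -0.85, -0.42, -0.91 and -0.77 (mean -0.79 ± 0.23, SD, n = 5; limma adjusted p = 0.0531). All 18 of its arrays were below the pool too. Sprr2b of the cornified envelope averaged -0.86 ± 0.46, and Ccl27a, a chemokine of skin epithelium, -0.74 ± 0.43 (SD, n = 5 each). For both, embryo 2 was nearest the pool, at -0.21 and -0.08.

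Reg3g, an antibacterial lectin of the gut, averaged -0.93 ± 0.54, Fabp1, a fatty acid carrier of liver and gut, -0.88 ± 0.63, and Grp, a neuropeptide of gut and lung, -0.87 ± 0.46 (SD, n = 5 each). Fabp1 split by dye in embryos 2 and 4, where the Cy3 arrays read 0.85 to 1.67 and the Cy5 arrays -1.89 to -1.03. Mbp, the basic protein of myelin, was -1.02 ± 0.65 and lowest in embryo 5 at -1.91. Adipoq, the adipocyte hormone, and Car3, a carbonic anhydrase of fat and muscle, averaged -0.74 ± 0.47 and -0.76 ± 0.49 (SD, n = 5 each). Embryos 2 and 4 were at -1.27 and -1.23 for Adipoq, and for Car3 embryo 2 was at -1.04 and embryo 4 lower still, and the other 3 embryos between -0.49 and -0.34 for both genes. Gadd45gip1, a mitochondrial ribosome protein, was -0.77 ± 0.35 (SD, n = 5).

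Gene lists described the same side in more detail, read against the 2.69% of all features that were higher and the 4.79% that were lower at an unadjusted p under 0.05. Of 17 measured chemokines and lectins of skin and epithelium 8 were lower and 0 higher (median -0.10), with Cxcl9, an interferon-induced attractant of T cells, at -0.19 ± 0.11. Clec2i, counted as lower, was at -0.77 in the Cy5 arrays alone and 0.40 in the Cy3 arrays alone. Clec2d and Cxcl9 were below the pool in both orientations. Of 42 products of other tissues that medullary epithelium can also make, 16 were lower and 0 higher (median -0.04). In 12 of these 42 the embryos differed from each other, against 11.6% of all features. Without embryo 5, 10 were lower. Of 33 genes of cornified epithelium 5 were lower and 1 higher (0.00; 3 lower without embryo 1 or as deposited), among them Ly6d, a surface protein also found on lymphocytes, at -0.72 ± 0.27. Ly6d was below the pool in both orientations. Sprr1b, also counted as lower among the cornified genes, was at -0.38 in the Cy5 arrays alone and 0.16 in the Cy3 arrays alone. Of 38 genes of thymic epithelium itself 5 were lower and 3 higher (0.00). The lower count was 9 without embryo 2, 1 without embryo 1, 2 without embryo 4, 3 without embryo 3 or 5 and 1 as deposited. Foxn1, its master regulator, was -0.03 ± 0.19, Aire, which drives tissue products in the medulla, -0.11 ± 0.08, and the cortical proteases Psmb11 and Prss16 -0.07 ± 0.18 and -0.05 ± 0.36 (SD, n = 5 each).

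Of 28 genes of the T cell receptor and its signalling 7 were lower and 0 higher at an unadjusted p under 0.05 (median -0.08). Without embryo 2, 12 were lower, without embryo 1 or 5, 5, and with values as deposited 3, while in the Cy5 arrays alone 4 were higher and 2 lower. Cd3d, a chain of the receptor complex, was -0.23, -0.15, -0.21, -0.26 and -0.17, a mean of -0.21 ± 0.04, and Trat1, an adaptor bound to it, -0.27 ± 0.09 (SD, n = 5 each). Cd3d was at 0.03 in the Cy5 arrays alone. Of 27 genes of the double positive stage, when CD4 and CD8 are both present, 4 were lower and 1 higher (-0.10), and 14 differed between embryos (11.6% of all features did). In the Cy5 arrays alone 6 were higher and 3 lower (0.06), against 3 higher and 11 lower in the Cy3 arrays alone (-0.28). Without embryo 1 the median was 0.00, and without embryo 2, 7 were lower, without embryo 5, 2. By embryo, the median of these 27 was -0.49, 0.12, -0.21, 0.13 and -0.23 for embryos 1 to 5, below the pool in embryos 1, 3 and 5 and above it in embryos 2 and 4. Cd4 (-0.04 ± 0.07), Cd8a (0.04 ± 0.30), Cd3e (-0.01 ± 0.20) and Rag2 (-0.11 ± 0.15) averaged near the pool. Of 26 early thymocyte genes 1 was higher and 0 lower (0.03), which was Ptcra, the surrogate receptor chain of early thymocytes, at 0.11 ± 0.06 (SD, n = 5), with a turned sign in the Cy3 arrays alone. Of 27 mature thymocyte genes 5 were lower and 0 higher (-0.03; 1 lower as deposited, 2 without embryo 1, 3 or 5), with Nr4a1, an immediate early gene of receptor signalling, at -0.25 ± 0.17 and Tnfrsf4, a costimulatory receptor, at -0.23 ± 0.10 (SD, n = 5 each). Tnfrsf4 was at 0.045 in the Cy3 arrays alone.

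Myeloid and neutrophil genes had 9 of 28 lower and 1 higher (median -0.07; 0.02 in Cy5 and -0.10 in Cy3), with 4 lower without embryo 5, and 5 lower without embryo 4 or as deposited. The neutrophil proteins S100a8 and Ltf were at -0.46 ± 0.38 and -0.23 ± 0.10. MHC class II and dendritic genes had 5 of 21 lower and 0 higher (-0.03; 1 lower as deposited, 2 without embryo 1, 3 without embryo 3 or 5), with H2-Oa, a modulator of peptide loading, at -0.41 ± 0.12. Fibroblast and matrix genes had 9 of 32 lower and 2 higher (-0.06; -0.01 in Cy5 and -0.21 in Cy3). Mfap4, a microfibril protein, was at -0.50 ± 0.12, and S100a4 at -0.45 ± 0.14 with 2 probes that disagreed (-0.81 and -0.09). Nerve and glia genes had 7 of 22 lower and 1 higher (-0.04; 0.08 in Cy5 and -0.08 in Cy3; 4 lower as deposited; SD, n = 5 for each gene). Among the nerve and glia genes counted as lower, Sox2 was at -4.27 in the Cy5 arrays alone and 3.53 in the Cy3 arrays alone. Pmp22, also counted as lower, was at 0.0014 in Cy5, and Nes, the higher one, at -0.069 in Cy3. Endothelial genes had 0 of 19 on either side at an unadjusted p under 0.05 (median 0.00).

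Of 38 cell cycle genes 33 lay above the pool, where 54.9% of all features did. At an unadjusted p under 0.05, 2.69% of all features were higher and 4.79% lower, here and for the lists that follow. Of the 38 genes 20 were higher and 0 lower, with a median of 0.15. Without embryo 2 or 4, 13 were higher. The median was 0.31 with the hypomorph in Cy5 and -0.02 with it in Cy3. Bub1 of the spindle checkpoint was 0.29 ± 0.16, Cdc6 of replication licensing 0.26 ± 0.17 and Nusap1 of the spindle 0.37 ± 0.32, with its highest values in embryos 2 and 4 (SD, n = 5 each). Bub1 was at -0.02 in the Cy3 arrays alone. Of 25 glycolysis and hypoxia genes 10 were higher and 0 lower (median 0.06; 0.21 in Cy5 and -0.02 in Cy3). Pgk1 and Pkm, the ATP-forming enzymes of glycolysis, were at 0.28 ± 0.08 and 0.28 ± 0.12, and Pgk1 was at -0.08 in the Cy3 arrays alone. Erythroid genes had 7 of 24 higher and 0 lower (median 0.09), at 0.05 in Cy5 and 0.06 in Cy3, and 4 and 3 higher without embryo 1 and embryo 3, with the transferrin receptor Tfrc at 0.26 ± 0.15. Targets of p53 had 6 of 24 higher and 0 lower (0.04; 0.11 in Cy5 and -0.05 in Cy3), among them Ccng1 at 0.32 ± 0.06 and Cdkn1a at 0.16 ± 0.13 (SD, n = 5 each). Of these 24, 3 were higher as deposited or without embryo 1, and 2 without embryo 2 or 4, with 3 lower without embryo 2. The part of the dye in these medians was not tested beyond these values.

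**Figure D3:**
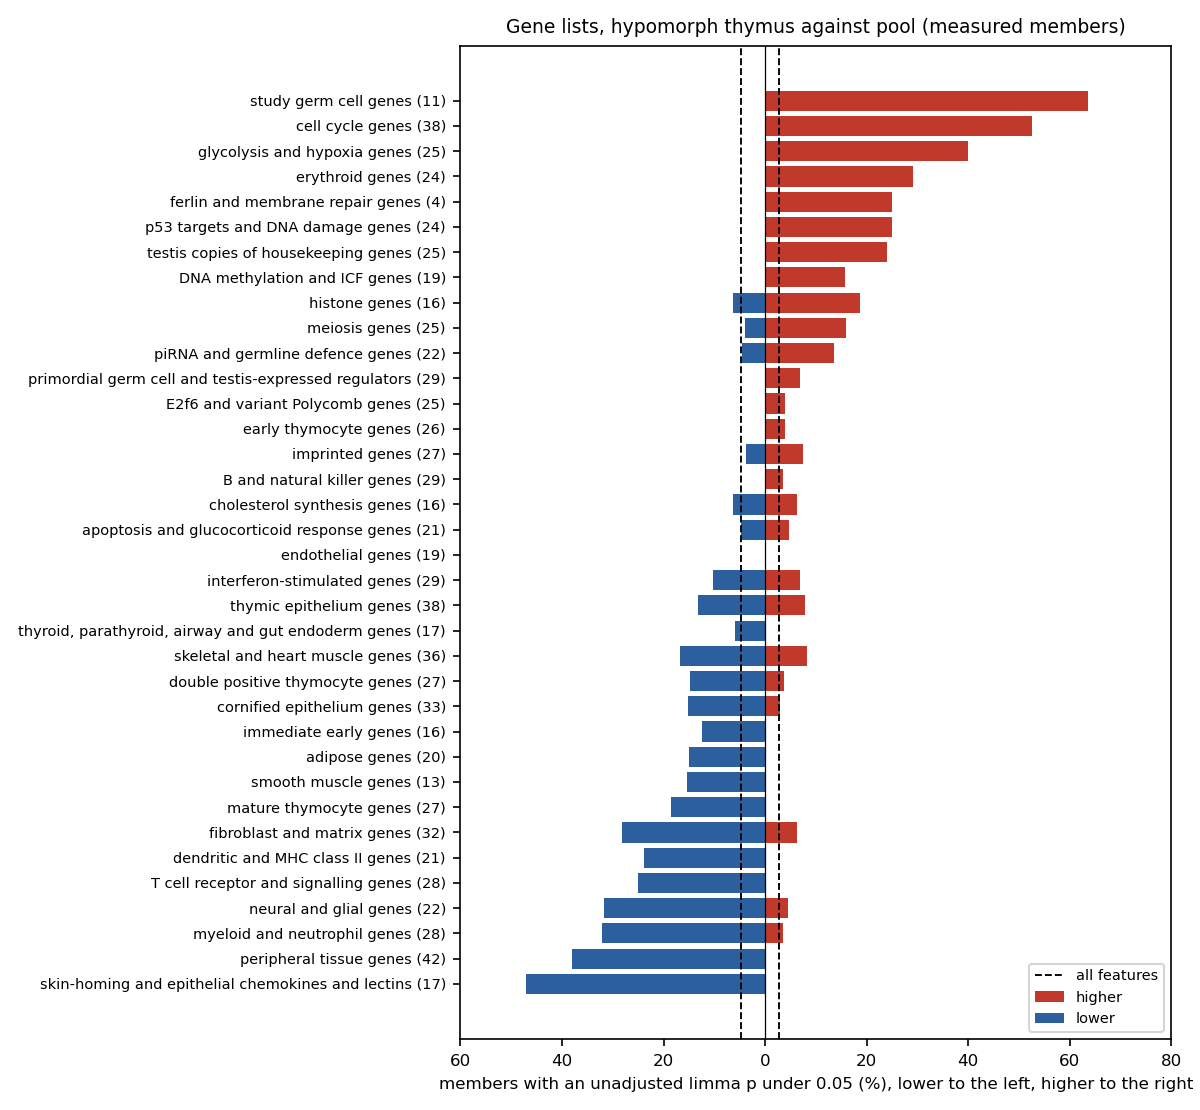
Share of the measured members of 36 gene lists with an unadjusted limma p under 0.05 in hypomorph thymus against the pool, in percent, higher to the right and lower to the left; the number of measured members is in brackets and dashed lines are the shares over all features (2.69% higher, 4.79% lower). Germ cell genes of the study (7 of 11) and cell cycle genes (20 of 38) reach furthest right, and chemokines and lectins of skin and epithelium (8 of 17) furthest left.

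The ratios of the 5 hypomorphic thymi also differed from each other. Of 21534 features with a value on all 18 arrays, 2501 (11.6%) differed between embryos beyond the spread of arrays of 1 embryo (limma F test with a dye term, adjusted p under 0.05). That spread is technical, so the test says that the readings of the embryos differed and nothing of hypomorph against wild type. It does not separate a difference in RNA from handling shared by the arrays of 1 embryo, which was not tested. Genes of fetal liver had the widest range. Afp, the fetal serum protein, was -1.29, 1.19, -3.14, 0.13 and -3.97 in embryos 1 to 5, and Alb, albumin, -1.63, 0.34, -2.73, 0.08 and -2.92. Embryos 1, 3 and 5 were far below the pool for both genes, and embryos 2 and 4 at or above it. The fibrinogen chains Fga, Fgb and Fgg, Ahsg and Apoa1 had the same order of signs, except that embryo 4 was slightly below 0 for Fgb, Ahsg and Apoa1.

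Genes of heart had a similar order, but with embryo 4 below the pool. Myl7, the atrial myosin light chain, was -2.25, 0.29, -1.66, -0.46 and -2.31, and Tnnt2, cardiac troponin T, -2.35, 0.15, -2.31, -0.42 and -2.12. Among thymocyte genes, Dntt, the polymerase that adds bases at receptor joints, was -1.82, 0.62, -1.68, 0.20 and -1.29, and Rag1, of the recombinase, -0.86, 0.70, -0.68, 0.74 and -0.53. Thymocyte genes did not all follow this order. Rag2, of the same recombinase, was -0.12, -0.09, 0.09, -0.13 and -0.32. Cd8a differed between embryos as well (limma F test, adjusted p = 0.00139), but Rag2, Ptcra, Cd4 and Cd3e did not (adjusted p = 0.0865 to 0.931). Synpr, a synaptic vesicle protein, was -2.58, 0.07, -2.57, 0.21 and -2.54. Airway genes ran the other way: Scgb3a2, a secretoglobin of bronchial epithelium, was 0.11, -2.94, -0.07, -3.26 and 0.28, and Scgb3a1 0.09, -2.35, 0.09, -2.15 and 0.20. Here embryos 2 and 4 were low and the other 3 at the pool. Skeletal muscle genes set embryo 5 apart, with Acta1 at -0.16, 0.34, -1.38, -0.65 and 1.69 and Tnnc2 at 1.70 in embryo 5 against -0.90 to 0.70 in the others.

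The arrays of these embryos differed in a technical measure as well. Before centring, the medians of the Cy5 arrays were 0.98 to 1.14 in embryos 2 and 4, 0.34 and 0.65 in embryo 3, and -0.26 to 0.31 in embryos 1 and 5. On the Cy3 arrays they were -0.85 to -0.67 in embryos 2 and 4, -0.75 and -0.48 in embryo 3 and -0.10 to 0.10 in embryos 1 and 5. Its part in the pattern was not tested. The count of features that differed was 36 with values as deposited, 199 in the Cy5 arrays alone and 9212 in the Cy3 arrays alone, 529 without embryo 2 and 1456 without embryo 4. The calls of Afp, Alb, Dntt, Rag1, Myl7 and Scgb3a2 held in each of these settings.

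**Figure D4:**
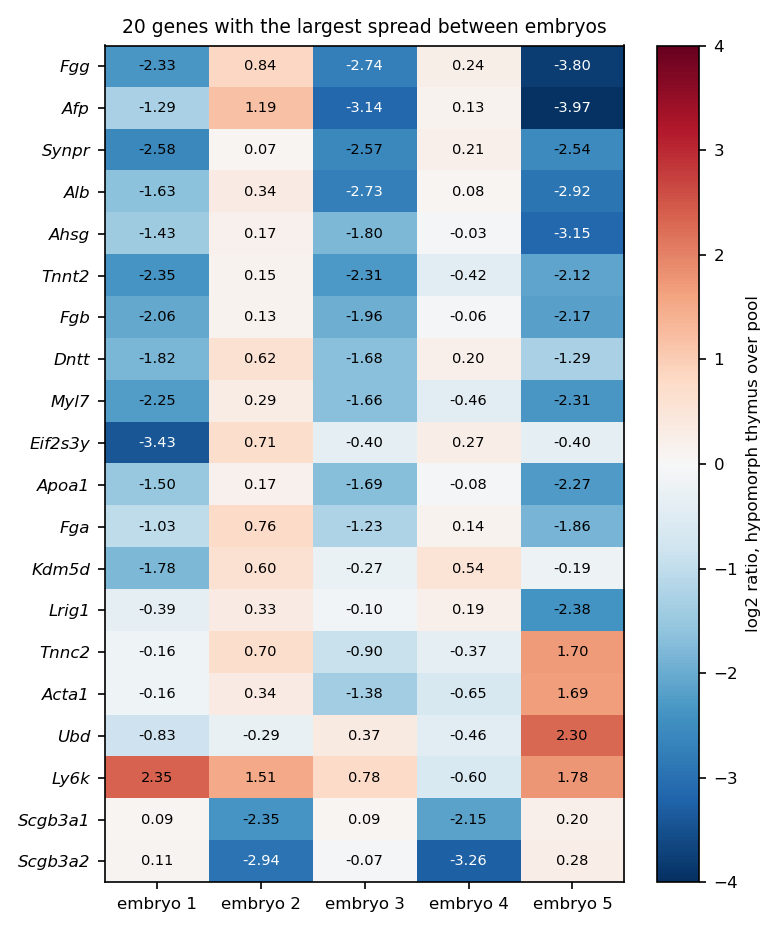
Log2 ratio of hypomorph thymus over the pool in each of the 5 embryos for the 20 genes with the largest SD among those that differed between embryos; blue is below and red above the pool, with values printed. Liver genes such as Afp and Alb are blue in embryos 1, 3 and 5, and Scgb3a1 and Scgb3a2 in embryos 2 and 4.

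Sex-linked genes separated embryo 1. Eif2s3y, Kdm5d and Uty, genes of the Y chromosome, were at -3.43, -1.79 and -0.55 there, while in embryos 2 to 5 they were between -0.40 and 0.71. Xist, the RNA of the inactive X chromosome, was 0.68 in embryo 1 and -0.27 to 0.03 in the others. The sexes of the embryos and of the pool are not in the labels. Without genes of the sex chromosomes 2432 features differed between embryos. Some wide ranges rest on single arrays, as for Lrig1 and Ubd in embryo 5, which has 1 array per orientation: Lrig1 read -4.10 and -0.67 there, and Ubd 4.42 and 0.19. Leaving out embryo 2 or 4 ended the calls of Lrig1 and Ubd, and leaving out embryo 1 or 4 that of Ly6k, whose values were 2.35, 1.51, 0.78, -0.60 and 1.78.

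Finally, the thymus ratios were set against those of the fibroblasts, which had their own pool, other embryos and an earlier age. Of 21850 features in both tissues 90 differed (limma, adjusted p under 0.05, 0.412%), 51 with the higher ratio in thymus (0.233%) and 39 with the lower (0.178%), and 1 of the 90, Krt10, also passed in thymus. Krt10 was at -0.49 ± 0.04 in thymus and 0.14 ± 0.21 in fibroblasts, a difference of -0.63 (SD, n = 5 each; adjusted p = 0.0298). The germ cell genes did not pass here. Rpl39l stood at 2.36 ± 0.44 in thymus and 0.73 ± 1.02 in fibroblasts, Slc25a31 at 2.23 ± 0.59 and 1.16 ± 0.34, and Syce1 at 1.28 ± 0.37 and 0.31 ± 0.27 (adjusted p = 0.114, 0.0994 and 0.0529). Ddx4 stood at 0.93 ± 0.27 in thymus and 1.03 ± 0.46 in fibroblasts (SD, n = 5 each; adjusted p = 0.851). Myof was at 0.68 ± 0.05 in thymus and 0.09 ± 0.33 in fibroblasts (adjusted p = 0.0813).

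Several of the largest differences between tissues belonged to genes near the pool in thymus. Ifi202b, an interferon-inducible gene, had 0.34 ± 0.88 in thymus and -4.07 ± 0.79 in fibroblasts, and Cd44, the hyaluronan receptor, 0.02 ± 0.07 and -1.95 ± 0.72. Ccng1 had 0.32 ± 0.06 in thymus and -0.68 ± 0.31 in fibroblasts, and Fech 0.64 ± 0.33 and -0.35 ± 0.19. Sfrp2, a secreted Wnt antagonist, had -0.50 ± 0.34 in thymus and 1.94 ± 0.88 in fibroblasts, and Mfap4 -0.50 ± 0.12 and 0.67 ± 0.50. H2bu2 had -1.11 ± 0.47 in thymus and -0.01 ± 0.16 in fibroblasts (SD, n = 5 each; adjusted p from 0.00868 to 0.0456 for these 7 genes). Of the 20 fibroblast arrays 4 correlated below 0 with the others of their embryo, and so did 4 of the 18 thymus arrays. Without the 4 fibroblast arrays 100 features differed, and H2bu2 did not (adjusted p = 0.0528). The 4 thymus arrays were not left out in this way. Leaving out 1 thymus embryo reduced the 90 to between 1 and 13. Ifi202b kept its call without embryo 1, 2, 3 or 4, and H2bu2 without embryo 2. Krt10 lost its call without any one of the 5 (adjusted p = 0.0608 to 0.0911).

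**Figure D5:**
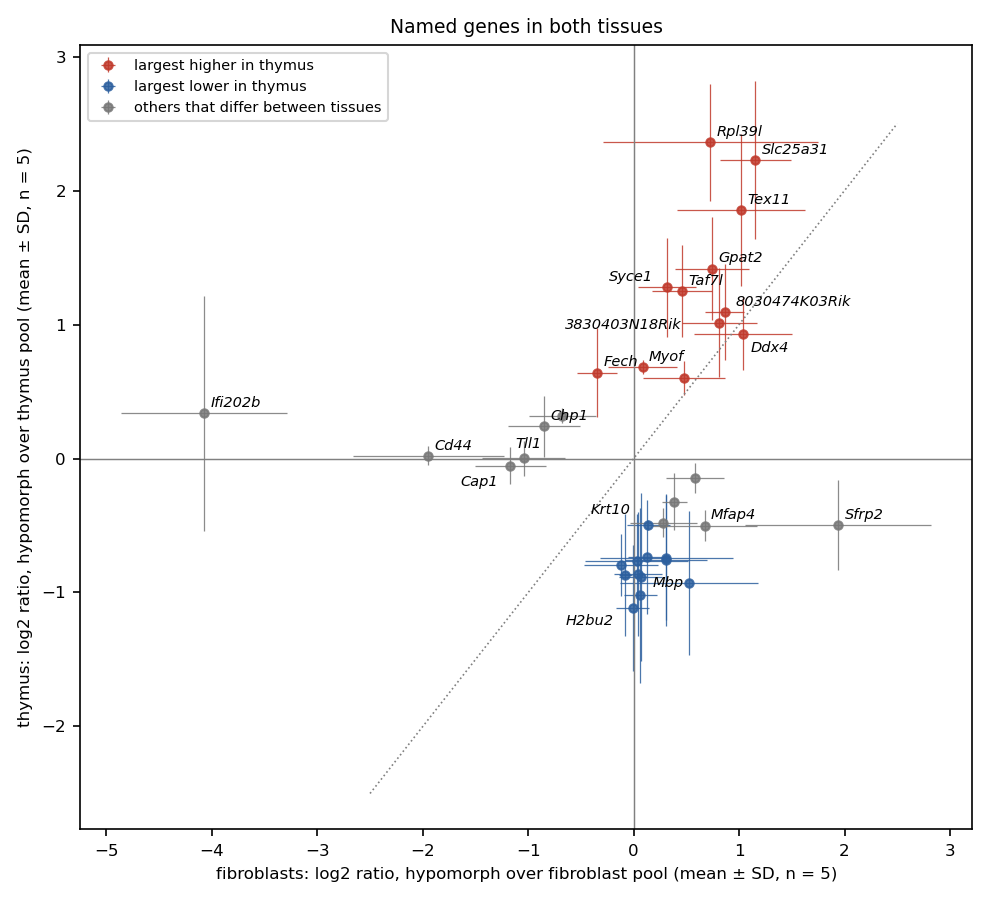
Mean log2 ratio in thymus (vertical) against that in fibroblasts (horizontal) for the genes with the largest ratios in thymus and those that differed between tissues; bars are 1 SD over 5 embryos and the dotted line marks equal ratios. The germ cell genes above the pool lie to the upper right, from Rpl39l at 2.36 in thymus to Ddx4 at 0.93, and H2bu2 lies at -1.11 in thymus and -0.01 in fibroblasts.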

How the data were processed

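The deposited table holds log2 ratios of 18 thymus and 20 fibroblast arrays. Per the design text in the labels, total RNA was isolated with RNeasy kits, amplified and hybridised with dye swaps, scanned with the Agilent G2565AA instrument, and the submitters left out 2 thymus arrays. The sources used here do not say how spots were quantified, corrected for background or normalized. The table holds ratios and no signals, so signal over background is unknown and loess, dim-probe filters and scan batches could not be tried.

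Log2 ratios deposited at the bound of 16.61 were treated as missing, and each array was centred on its median. An embryo's value is the mean of its Cy5 and Cy3 means per probe, averaged over the probes of a gene. Of 25344 probes 21111 had 1 symbol, 0 several and 4233 none. Against RefSeq (GRCm38.p6) 17069 symbols were current, 3974 were updated and 68 kept. Taf7l lacked a value on 1 array of embryo 1. Features needed a value in all 5 embryos. Tests used limma 3.58.1 in R 4.3.3 (lmFit and eBayes, two-sided except the F test, Benjamini-Hochberg over all features). Each was also run on simulated data with the spread of the real features. That noise was independent, with none shared through the pool or an embryo. Arrays of an embryo are technical repeats. No source says more of how the embryos were obtained, so p-values measure only the spread between them. The replicate numbers of thymus and fibroblasts belong to different embryos and pair nothing.

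Named genes are the 12 largest per direction among those that passed, and, where fewer than 6 passed, the largest at an unadjusted p under 0.01 as well, all with 1 sign in 5 embryos. Added to these are the 20 largest SDs between embryos, 6 per direction between tissues, up to 4 per gene list at an unadjusted p under 0.05, and fixed markers. Members, lists and rules were chosen with earlier results of these data known. Alternatives were centring, scaling, 1 dye orientation, left-out embryos or arrays, weights, robust variance, single probes, complete features, a random embryo block, print blocks and a replicate block.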

Additional observations from a re-analysis of the deposited data

Results flagged for a closer look

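In several genes 1 embryo lay far from the other 4 in thymus. Chance singles out about 1 in 20 groups in this way. Embryo 1 stood apart for Eif2s3y at -3.43, for Uty at -0.55 and for Cxcl9 at -0.39. Embryo 5 did for Lrig1 at -2.38, where 1 of its 2 arrays read -4.10, and for Krt17, a keratin of basal epithelium, at -0.49. Embryo 4 did for Ifi202b at -1.17, where the other 4 embryos were above the pool, and for Myof at 0.59, within the narrow range of that gene. Embryo 3 did for Ccnb2, the mitotic cyclin, at 1.13, where 1 array read 4.16 and the other 3 between -0.30 and 0.43, and embryo 2 for Lpl, lipoprotein lipase, at -0.057.

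The ratio differed between thymus and fibroblasts in 16 genes named here (limma, adjusted p under 0.05), given as thymus minus fibroblasts. It was higher in thymus for Ifi202b by 4.41, Cd44 by 1.97, Cap1 by 1.12, Chp1 by 1.09, Tll1 by 1.04, Ccng1 by 1.00 and Fech by 0.99. The difference was -2.44 for Sfrp2, -1.17 for Mfap4, -1.10 for H2bu2, -0.76 for Fxyd1, -0.73 for Pcp4l1, -0.71 for Mrpl55, -0.68 for Ly6d, -0.63 for Krt10 and -0.44 for H2-Oa. Without the 4 fibroblast arrays that correlated below 0 with their embryo, 5 of these 16 calls were lost, those of Cap1, H2bu2, Fxyd1, Pcp4l1 and H2-Oa.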

How the results depend on the processing

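Against the pool 5 features passed. The count was 1 with values as deposited, 13 with arrays scaled to equal spread, 8 with a robust prior variance, 9 when the 3 arrays with no genotype label were dropped, 9 with each probe on its own, 19 over features with a value on all arrays, 250 with embryo weights and 406 with single arrays and a random embryo block. In the Cy5 arrays alone it was 4880, and in the Cy3 arrays alone 5246, where the dye does not cancel. Leaving out 1 embryo gave 0 to 4. Between embryos 2501 features differed, against 36 as deposited, 4305 scaled, 199 in Cy5, 9212 in Cy3, 950 without the dye term, 4447 with each print block centred (chosen after the data were seen) and 529 to 3071 with 1 embryo left out. Between tissues 90 differed, against 17 as deposited, 1 to 13 with 1 thymus embryo left out and 1 with a replicate block, although the replicate numbers pair no samples. Leaving out 4 fibroblast arrays was also chosen after the data were seen. Rpl39l passed in every setting run except without embryo 1, 3 or 5. Slc25a31 did not pass as deposited (adjusted p = 0.0634) or with print blocks centred (0.0695), and Myof (0.0634) and Krt10 (0.246) did not as deposited. Signs turned in the Cy3 arrays alone for Cdca7 (-0.16), Ptcra (-0.15), Tnfrsf4 (0.045), Sprr1b (0.16), Clec2i (0.40), Mb (0.60), Sox2 (3.53), Nes (-0.069), Bub1 (-0.015), Isg15 (0.061), Cdkn1c (-0.083), Pgk1 (-0.083), H1f2 (-0.031), Tuba3a (-0.094), Tuba3b (-0.059), Dnmt3a (-0.019) and Dnmt3l (-0.13). They turned in the Cy5 arrays alone for Tfdp2 (-0.030), Cd3d (0.025), Pmp22 (0.0014), Sycp3 (-0.42), Tex101 (-0.62) and Dnmt1 (-0.055). Tex101 also turned without embryo 1 (-0.011 to 0.045 over the 5 embryos left out) and with print blocks centred (-0.00257), Dnmt3a with embryo weights (-0.0017) and print blocks centred (-0.0078), and Dnmt3l without embryo 3 or 5 (-0.017 to 0.23 over the 5). Except for the dye settings, the cause of these changes was not tested. The number of embryos, 1 pool and unknown signal over background limit the precision.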

Other observations

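Over all features 2.69% were higher and 4.79% lower at an unadjusted p under 0.05. Skeletal and heart muscle had 6 of 36 lower and 3 higher, with 13 differing between embryos (11.6% of all features did). Smooth muscle had 2 of 13 lower and 0 higher, with Myh11, its myosin, at -0.36 ± 0.26 (SD, n = 5), and adipose genes 3 of 20 lower and 0 higher. Genes of thyroid, parathyroid, airway and gut had 1 of 17 lower and 0 higher, which was Scgb1a1, the club cell secretoglobin, at -0.27 ± 0.23 (SD, n = 5). B and natural killer genes had 1 of 29 higher and 0 lower. Interferon-stimulated genes had 2 of 29 higher, with Oasl2 at 0.19 ± 0.09, and 3 lower, with Isg15 at -0.16 ± 0.16 (SD, n = 5 each).

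Imprinted genes had 2 of 27 higher and 1 lower, with Cdkn1c, a maternally expressed cell cycle inhibitor, at 0.16 ± 0.10 (SD, n = 5). Histone genes had 3 of 16 higher and 1 lower, among them the variant H2ax at 0.20 ± 0.08 (SD, n = 5). Immediate early genes had 2 of 16 lower and 0 higher, apoptosis and glucocorticoid response genes 1 of 21 on each side, and cholesterol synthesis genes 1 of 16 on each side, with Insig1, a sterol sensor, at -0.32 ± 0.16 (SD, n = 5). Of 4 ferlin and membrane repair genes 1 was higher, Myof. The 4 sex-linked genes all differed between embryos, and 0 differed from the pool at an unadjusted p under 0.05 (limma).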
